A study of Mus musculus with 8 samples.

Results

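The transcriptomes compared here come from wild-type mouse embryos at embryonic day 11.5, which served as littermate controls in 2 experiments of one study. The Prep1 WT group is 1 library from wild-type littermates of Prep1 hypomorphic embryos, and the Meis WT group is 3 libraries from wild-type littermates of Meis1 knockout embryos. All were C57BL/6, and RNA was taken from the whole embryo and sequenced as single-end mRNA reads of 68 bases. The number of embryos behind a library is not stated. No gene of these embryos was altered, but the libraries belong to different litters, and a day of gestation spans a range of developmental ages. The other 4 of the 8 libraries of the study, 1 Prep1 hypomorph (Prep1 Hypo) and 3 Meis1 knockouts (Meis KO), are used only beside the wild types. Genes were joined by Ensembl identifier, which gave 17233 shared genes of the 19019 present in either table. The 115 genes only in the Prep1 table held 0.008% of the counts of Prep1 WT, and the 1671 only in the Meis1 table held 0.084% of those of Meis WT.

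Each wild type was scaled to the same sum over the shared genes, so that levels are CPM, counts per 1000000 counts of these genes. The Prep1 WT library held 4000984 counts. The Meis WT table gives a mean of 3 libraries, from which the whole counts of each library were worked back for all genes except H19 and Hbb-y. These libraries are called a, b and c by size and held 4499039, 4745879 and 6542962 counts in the genes so settled. Which labelled sample each letter stands for is unknown. For 6 abundant genes, among them Eef1a1, Actb and Hba-x, the library counts rest on a further rule that simulated data did not cover. The tables were normalized and filtered separately, and Prep1 WT is a single library, so no test between the wild types is given. Each ratio is Prep1 WT over the Meis WT mean on a log2 scale with 0.5 CPM added, read against the spread of the 3 Meis WT libraries. Experiment, litter, stage and library preparation cannot be told apart in any difference between the wild types.

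At this stage the organs of the mouse are being laid down. The heart beats, the liver has just begun to make blood, limb buds grow, and the neural tube holds dividing progenitors beside the first neurons. Most circulating red cells are still the primitive ones made in the yolk sac. These carry embryonic globins, encoded by Hbb-y and Hbb-bh1 of the beta locus and Hba-x of the alpha locus, while definitive cells from the liver carry adult globins such as Hbb-b1. Globin genes are read by the erythroid factors GATA1 and KLF1, which recognise GATA and CACCC sequences, and many globin promoters also hold a CCAAT and a TATA box.

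Globin transcripts were the abundant ones that differed most between the wild types. The 150 bases before the start of 3 picked globin genes, each with a RefSeq entry, are shown 5' to 3', from the GRCm38.p6 build. Hbb-y is on the minus strand at chr7:103853208-103853357, Hba-x on the plus strand at chr11:32276450-32276599, and the adult Hba-a1 on the plus strand at chr11:32283522-32283671. Capitals mark matches on either strand to the CACCC box, the CCAAT box, the GATA sequence or the TATAA box.
Hbb-y: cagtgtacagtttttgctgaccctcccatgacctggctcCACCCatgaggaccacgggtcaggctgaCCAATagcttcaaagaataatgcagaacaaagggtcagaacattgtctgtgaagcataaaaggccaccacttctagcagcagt
Hba-x: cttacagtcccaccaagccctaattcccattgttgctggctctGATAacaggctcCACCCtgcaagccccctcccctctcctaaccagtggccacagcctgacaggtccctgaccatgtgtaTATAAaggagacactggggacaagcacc
Hba-a1: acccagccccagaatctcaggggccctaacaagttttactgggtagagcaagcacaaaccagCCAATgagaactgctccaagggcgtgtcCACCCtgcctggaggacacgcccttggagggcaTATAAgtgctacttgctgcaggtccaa
Each of the 3 windows held 1 CACCC match. CCAAT was found in the Hbb-y and Hba-a1 windows, TATAA in the Hba-x and Hba-a1 windows, and GATA in the Hba-x window. Of 32851 promoter windows of this length, 37.4% held CACCC, 24.5% held CCAAT, 35.7% held GATA and 14.2% held TATAA, so these matches are frequent. The searched letters do not overlap each other in these windows.

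The transcript with most counts in both wild types was H19, a maternally expressed noncoding RNA of the imprinted Igf2 locus. It stood at 11159 CPM in Prep1 WT and 15825 CPM in Meis WT, a log2 ratio of -0.50, and its level in the single Meis WT libraries could not be settled. Eef1a1, the elongation factor that brings aminoacyl-tRNA to the ribosome, came next with 6698 CPM in Prep1 WT and 9189, 8826 and 9589 CPM in Meis WT a, b and c. Prep1 WT lay below all 3 libraries. Actb, cytoplasmic actin, held 6136 CPM in Prep1 WT and 6947, 6089 and 6569 CPM in Meis WT, so that Prep1 WT lay among them.

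The rest of the 25 genes with most counts were transcripts of the mitochondrial genome, embryonic globins, imprinted genes and general machinery. The imprinted Igf2, a fetal growth factor, held 2710 CPM in Prep1 WT and 2342, 3516 and 2610 CPM in Meis WT. Nnat, Mest and Grb10, which are imprinted too, lay within the Meis WT range as well. The splicing factor genes Srsf1 and Srsf2 were the only ones of the 25 above all 3 Meis WT libraries, with log2 ratios of 0.09 and 0.11. Of the 23 with library values, 11 lay below all 3 and 10 within their range. The 25 genes together took 7.80% of the counts in Prep1 WT and 10.52% in Meis WT. Over the 23 genes with library values the share was 6.52% in Prep1 WT and 8.19%, 7.84% and 8.24% in Meis WT a, b and c, so the most abundant transcripts made up less of Prep1 WT than of any Meis WT library.

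**Figure D1:**
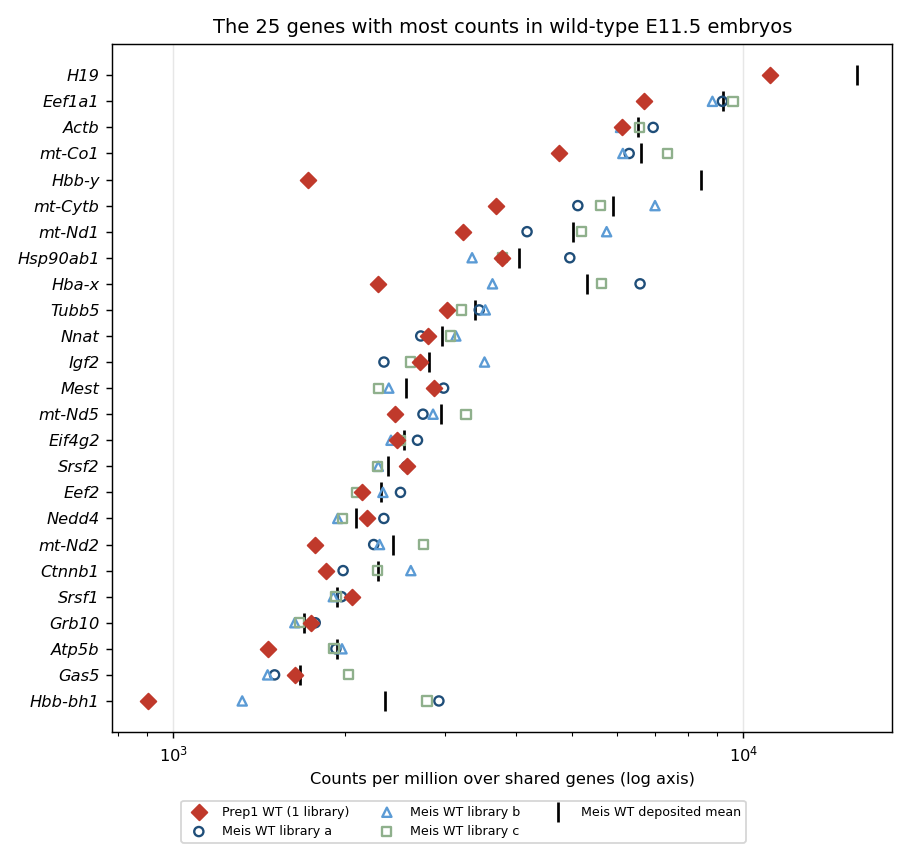
CPM over shared genes (log axis) of the 25 genes with most counts, ordered by the mean of both wild types. Diamonds are the Prep1 WT library, open symbols the 3 Meis WT libraries and black ticks the deposited Meis WT mean, which alone is known for H19 and Hbb-y. Hbb-y, Hba-x and Hbb-bh1 stand furthest to the left of their Meis WT values, at 1724, 2287 and 903 CPM.

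Corrected for the length of the gene model, the order changed. Per kb of exon, Hbb-y had the highest mean of all, with 2724 CPM per kb in Prep1 WT and 13290 CPM per kb in Meis WT. H19 followed with 4536 CPM per kb in Prep1 WT and 6433 CPM per kb in Meis WT. Within Prep1 WT alone H19 was above Hbb-y on this scale. So were mt-Nd1, mt-Cytb and mt-Co1, at 3363, 3219 and 3071 CPM per kb in Prep1 WT. By counts, Hbb-y ranked 22nd in Prep1 WT and 3rd in Meis WT, and Hbb-bh1 ranked 70th in Prep1 WT and 18th in Meis WT.

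Across the genes tested for a difference, the wild types were alike to a wide extent. There were 12622 genes with a mean of at least 5 CPM, which are the genes tested below against a 2-fold threshold. Their log2 ratio had a median of 0.03, and 90% of it lay between -0.79 and 0.93, the 5th and 95th percentiles. In Prep1 WT, 511 genes (4.05%) were at least 2-fold higher and 262 (2.08%) at least 2-fold lower than the Meis WT mean. Prep1 WT was above all 3 Meis WT libraries for 38.4% of 12620 genes and below all 3 for 31.7%, which makes 70.1% outside their range, so lying outside is the common case for a gene and marks none on its own. The range of the 3 Meis WT libraries was itself over 2-fold for 6.02% of the genes. All 511 higher genes were above the 3 libraries, and 246 of the lower ones (1.95%) were below them. Without Meis WT library a, 630 of 12675 genes were at least 2-fold higher and 488 lower. Leaving out library b gave 518 and 192 of 12573, and leaving out library c gave 524 and 259 of 12620. List counts below that leave out a library belong beside these, not beside the shares from all 3 libraries. Just inside and just outside the 2-fold threshold were Ndor1 at 1.0032 and Wbp7 at 0.9999, so the counts depend on where the line is drawn. The filter is on the mean of both wild types, so a gene can pass it only through the group in which it is high. The counts for the gene lists below are therefore a description.

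**Figure D2:**
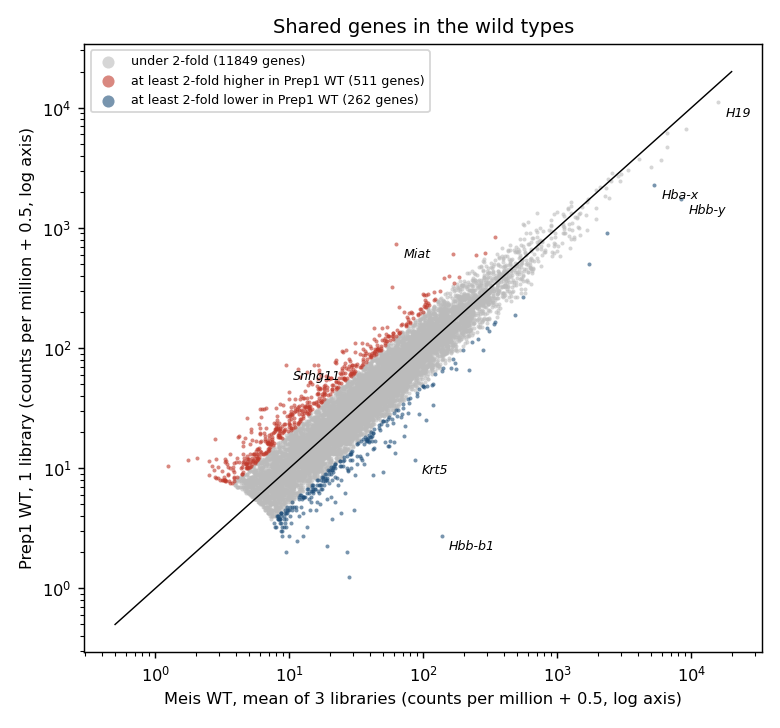
Levels of the 12622 genes in Prep1 WT (vertical) and Meis WT (horizontal, mean of 3 libraries), both as CPM plus 0.5 on log axes. Red points are 511 genes at least 2-fold higher and blue points 262 genes at least 2-fold lower in Prep1 WT, and the line marks equal levels. Globins and Krt5 lie well below the line and Miat well above it.

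The Meis WT libraries were not equally far from Prep1 WT. Across genes, Pearson's r of the log2 levels was 0.9543 between Prep1 WT and library a, 0.9329 with c and 0.9145 with b (12620 genes, which are not independent replicates and share each library's depth and composition). Between Meis WT libraries it was 0.952 for a and b, 0.9763 for a and c and 0.9728 for b and c. Prep1 WT and a differed by at least 2-fold in 5.67% of the genes, Prep1 WT and c in 8.26%, and Prep1 WT and b in 11.1%. For a and b the share was 4.95%, close to that for a and Prep1 WT.

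Red-cell transcripts were lower in Prep1 WT. All 3 embryonic globins and all 4 adult globins among the shared genes were at least 2-fold lower, against 2.08% of all genes tested. With a correction for gene length, described at the end, 1 of the 3 embryonic and 3 of the 4 adult globins were. Hbb-y (chromosome 7, 111000259 to 111001754 in mm9), the main embryonic beta chain of primitive red cells, stood at 1724 CPM in Prep1 WT, with a 95% counting interval of 1684 to 1765, and at 8413 CPM in Meis WT, a log2 ratio of -2.29. Hba-x, the zeta chain, stood at 2287 CPM in Prep1 WT and at 6589, 3631 and 5646 CPM in Meis WT a, b and c, a log2 ratio of -1.22. Hbb-bh1, another embryonic beta chain, stood at 903 CPM in Prep1 WT and at 2924, 1321 and 2787 CPM in Meis WT, a log2 ratio of -1.38. Both lay below every Meis WT library, and b was the closest to Prep1 WT.

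Adult globins varied in another way among the Meis WT libraries. Hbb-b1, an adult beta chain, held 9 counts or 2.25 CPM in Prep1 WT and 12.8, 381 and 24.6 CPM in Meis WT a, b and c. Its log2 ratio of -5.64 rests on library b, without which it was -2.81. Hba-a1, an adult alpha chain also made in primitive cells, held 499 CPM in Prep1 WT and 1231, 2393 and 1571 CPM in Meis WT, a log2 ratio of -1.79. Hbb-b2 held 16.0 CPM in Prep1 WT and 38.6, 35.4 and 105.7 CPM in Meis WT, a log2 ratio of -1.87, and -1.19 without library c. Among the Meis WT libraries, b thus had the least Hba-x and Hbb-bh1 and the most Hbb-b1 and Hba-a1, but the least Hba-a2, at 419 CPM against 477 in a and 562 in c. Hba-a1 and Hba-a2, and Hbb-b1 and Hbb-b2, are near-identical pairs between which reads may be split, so the value of each single gene is uncertain.

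Of 28 other erythroid genes tested, 12 were at least 2-fold lower, against 2.08% of all genes tested, and 0 higher. Leaving out library a, b or c gave 10, 13 and 11 lower. The median log2 ratio was -0.87 against 0.03 over all genes. Prep1 WT was below all 3 Meis WT libraries for 20 of the 28, against 31.7% of all genes. Hemgn, a nuclear factor of red-cell precursors, had 28.2 CPM in Prep1 WT and 92.9, 39.5 and 93.7 CPM in Meis WT. Tfrc, the transferrin receptor that most dividing cells use, lay within the Meis WT range, with 204 CPM in Prep1 WT and 210, 196 and 209 CPM in Meis WT. Of 8 platelet and megakaryocyte genes tested, 0 passed 2-fold in either direction, where 6.12% of all genes tested did. Their median was 0.28, and 4 lay above all 3 Meis WT libraries, against 38.4% of all genes. Without library a 1 was lower, and without library b 1 was higher and 1 lower. In whole embryos, fewer cells of a type and less RNA per cell cannot be told apart.

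Nervous system transcripts were higher in Prep1 WT. Of 16 neural progenitor genes tested, 11 were at least 2-fold higher against 4.05% of all genes tested, 0 were lower, and the median log2 ratio was 1.29. Leaving out library a gave 12 higher and 1 lower, and leaving out library b gave 10 higher and 0 lower. For 15 of the 16, Prep1 WT was above every Meis WT library, where 38.4% of all genes were. Olig2, counted among the 11, passed the filter only through Prep1 WT, with 8.25 CPM there and 2.00 CPM in Meis WT. Notch1, the receptor that holds neighbouring cells in the progenitor state, had 252 CPM in Prep1 WT and 110, 89.3 and 109.5 CPM in Meis WT. Dll1, a ligand of that receptor, had 74.0 CPM in Prep1 WT and 25.4, 22.0 and 28.6 CPM in Meis WT, so ligand and receptor lay on the same side. Pax6, a transcription factor of forebrain, eye and spinal cord, had 115 CPM in Prep1 WT and 55.4, 39.5 and 63.7 CPM in Meis WT, a log2 ratio of 1.11, and 0.94 without library b. Fabp7, a fatty-acid binding protein of radial glia, was the exception, with 69.7 CPM in Prep1 WT and 60.4, 213 and 115 CPM in Meis WT. Its log2 ratio was -0.87, and -1.23 without library a.

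Of 21 neuron genes tested, 6 were at least 2-fold higher against 4.05% of all genes tested, 0 were lower, and the median log2 ratio was 0.74. Leaving out library a gave 8 higher and 1 lower, and leaving out library b gave 8 higher and 0 lower. Elavl3, a neuronal RNA-binding protein, had 149 CPM in Prep1 WT and 58.6, 57.8 and 41.8 CPM in Meis WT. Cntn2, an axonal adhesion molecule, had 145 CPM in Prep1 WT and 54.5, 32.1 and 39.99 CPM in Meis WT. Tubb3, the neuronal tubulin, had 391 CPM in Prep1 WT and 372, 389 and 354 CPM in Meis WT, a log2 ratio of 0.07. Of 9 neural crest and sympathetic genes, 2 were higher, against 4.05% of all genes tested, and 0 lower. Without library a 3 were higher and 1 lower, and without library b 1 was higher. Among the 2 was Ret, a receptor of crest-derived enteric neurons, with 18.7 CPM in Prep1 WT and 6.51, 9.47 and 4.63 CPM in Meis WT.

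The genes with the largest ratios in either direction are given next, among those with a mean of at least 20 CPM and Prep1 WT outside the range of settled Meis WT library values. That rule leaves out Hbb-y, which has no library values, and genes within the range such as Alb, as well as predicted genes, pseudogenes and repeated entries. Miat, a long noncoding RNA of neural cells (chromosome 5, 112642248 to 112657968 in mm9), had 737 CPM in Prep1 WT, with a counting interval of 711 to 764, and 81.0, 27.2 and 77.0 CPM in Meis WT. Its log2 ratio of 3.56 was the highest, and the gene ranked 94th by counts in Prep1 WT and 4059th in Meis WT. Snhg11, a noncoding host of small nucleolar RNAs, had 71.2 CPM in Prep1 WT and 10.4, 1.23 and 14.9 CPM in Meis WT, a log2 ratio of 2.93. Celsr2 and Celsr3, cadherins of planar polarity that guide axons, had log2 ratios of 2.47 and 2.23. Srrm4 (2.25), a neuronal splicing regulator, Slc1a2 (2.25), a glutamate transporter, and Nfasc (2.15), an adhesion molecule of the axon, came with them. Slit1 (2.12) and Sema5b (1.98), axon guidance molecules, Pou3f2 (2.00) and Zfhx2 (1.92), neural transcription factors, and Gpr98 (1.89), a very large receptor, completed the 12 highest. Leaving out any one Meis WT library kept each of these 12 above 2-fold.

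The 12 lowest were led by Hbb-b1, and Hbb-b2, Hba-a1 and the red-cell enzyme gene Blvrb (-1.95) were also among them. Krt5, a keratin of basal epidermis (chromosome 15, 101537501 to 101543322 in mm9), had 11.2 CPM in Prep1 WT and 24.1, 142 and 93.7 CPM in Meis WT, a log2 ratio of -2.88. Gabrp (-2.28), a receptor subunit found in epithelia, had 8.25 CPM in Prep1 WT and 9.99, 65.2 and 51.9 CPM in Meis WT. Gjb2 (-2.18), a gap junction protein, and Cxcl14 (-2.05), a chemokine of epithelia, behaved likewise, with library a closest to Prep1 WT in both. Cav1 (-1.86), the main protein of caveolae, Lum (-1.83), a proteoglycan of connective tissue, Ttr (-1.75), a transport protein of liver, yolk sac and choroid plexus, and Anxa2 (-1.74), a membrane-binding annexin, made up the rest. Among the Meis WT libraries, a had the lowest value for each of the 12 except Blvrb, where it had the highest, and Hbb-b2, where b had the lowest.

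**Figure D3:**
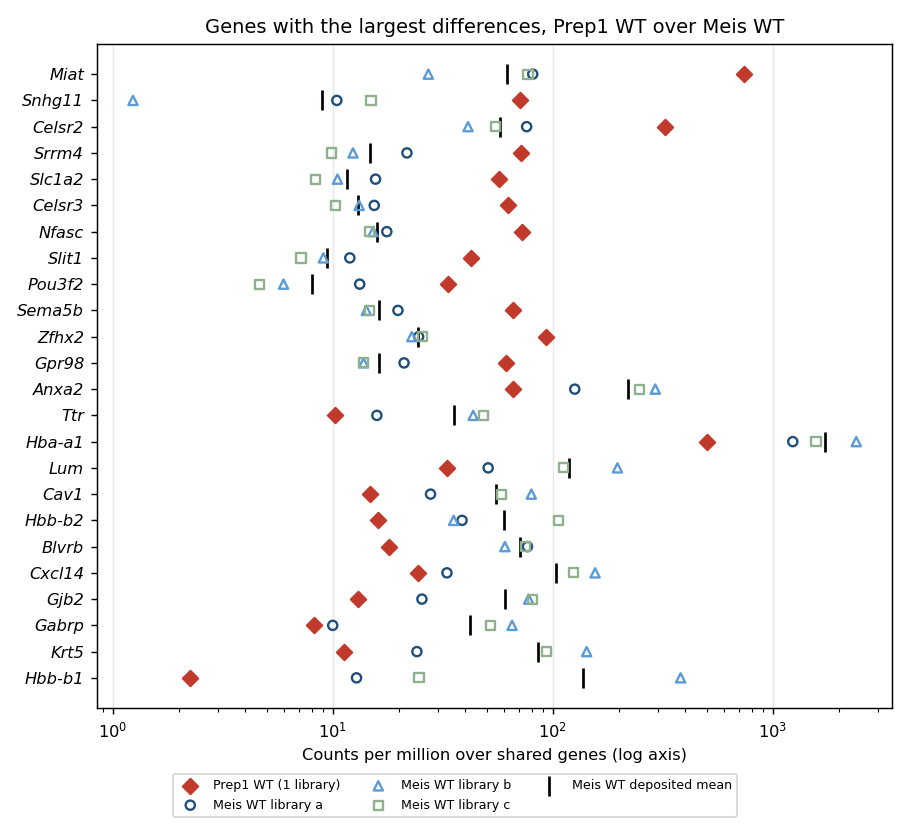
CPM (log axis) of the 12 genes highest and the 12 genes lowest in Prep1 WT relative to Meis WT, ordered by the log2 ratio. Diamonds are Prep1 WT, open symbols the 3 Meis WT libraries and black ticks their deposited mean. For Miat Prep1 WT stands at 737 against 27.2 to 81.0 CPM, and for Hbb-b1 the Meis WT libraries alone span 12.8 to 381 CPM.

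Hox genes, the homeobox genes that set position along the body axis, lay above the Meis WT mean for 9 of 9, 10 of 10 and 11 of 12 tested genes of groups 1 to 4, 5 to 8 and 9 to 13, against 52.1% of all genes tested. Of 9 tested genes of groups 1 to 4, which pattern hindbrain and neck, 6 were at least 2-fold higher, against 4.05% of all genes tested. Without library c 4 were. With a correction for gene length 6 of 8 were, and with a correction for GC content 3 of 8 were. The median log2 ratio was 1.06, and 0.96 with the GC correction. Of 10 genes of groups 5 to 8, 3 were higher (0 without library c), with a median of 0.57. Of 12 genes of groups 9 to 13, which pattern the trunk end and limbs, 1 was higher (0 without library c), with a median of 0.56. Hoxb3 had 89.2 CPM in Prep1 WT and 45.8, 35.8 and 35.1 CPM in Meis WT. Hoxd3 had 110.5 CPM in Prep1 WT and 41.0, 27.6 and 34.5 CPM in Meis WT, and Hoxd4 43.0 CPM in Prep1 WT and 14.98, 10.9 and 11.8 CPM in Meis WT. The entry of Hoxd4 lies inside that of Hoxd3 (chromosome 2, 74549986 to 74586331 in mm9), so the same reads may count in both. Hoxb9 had 86.0 CPM in Prep1 WT and 56.9, 42.0 and 22.1 CPM in Meis WT, a spread among the Meis WT libraries as wide as the distance from a to Prep1 WT.

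Regulators of gut, lung and kidney were mixed. Of 8 gut and lung endoderm genes that passed the filter, 5 were at least 2-fold higher, against 4.05% of all genes tested, and 2 lay below all 3 Meis WT libraries. Foxp2, a factor of lung and brain, was one of these, with 93.2 CPM in Prep1 WT and 100.3, 139 and 129 CPM in Meis WT. Nkx2-1, a factor of lung, thyroid and ventral forebrain, had 9.25 CPM in Prep1 WT and 3.91, 1.65 and 1.04 CPM in Meis WT. Foxa1, of endoderm and floor plate, had 10.998 CPM in Prep1 WT and 3.91, 3.50 and 1.19 CPM in Meis WT. Both are made in the neural tube too, so this list is not separate from the neural ones. Of 9 kidney and urogenital genes, 3 were higher, against the same 4.05%. Among them Lhx1, of the nephric duct and of spinal interneurons, had 25.996 CPM in Prep1 WT and 6.95, 6.59 and 3.43 CPM in Meis WT. Nkx2-1 and Foxa1 passed the filter only through Prep1 WT, in which they were high, so the counts of these lists are a description and show nothing about the lists as a whole.

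Surface epithelium was lower in Prep1 WT. Of 15 epidermis and simple epithelium genes, 6 were at least 2-fold lower, against 2.08% of all genes tested, and 0 were higher. With library a left out, 8 of the 15 were lower. The median log2 ratio was -0.95, and 14 lay below all 3 Meis WT libraries, against 31.7% of all genes. Trp63, the master regulator of stratified epithelium, had 22.0 CPM in Prep1 WT and 64.1, 65.6 and 86.4 CPM in Meis WT, which were close together and well above Prep1 WT. Cdh1, the epithelial cadherin, had 37.7 CPM in Prep1 WT and 60.6, 57.6 and 83.3 CPM in Meis WT. Krt14, the partner of Krt5, held 6 counts or 1.4997 CPM in Prep1 WT and 4.56, 51.4 and 23.9 CPM in Meis WT. It passed the filter only through Meis WT.

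Of 18 heart muscle genes tested, 2 were at least 2-fold lower, against 2.08% of all genes tested. Without library a 6 were, where 488 of all 12675 genes were, and without library b 4 were, where 192 of 12573 were. None of the heart genes was higher, their median log2 ratio was -0.71 and 13 lay below all 3 Meis WT libraries, against 31.7% of all genes. Myl2, the ventricular myosin light chain, had 49.2 CPM in Prep1 WT and 113.8, 106.4 and 135.2 CPM in Meis WT. Myh6, the atrial myosin heavy chain, had 151 CPM in Prep1 WT and 231, 89.1 and 174 CPM in Meis WT, within the range. Skeletal muscle genes had a median of 0.05, with 2 of 10 higher, against 4.05% of all genes tested. Among the 2 was Ttn, the giant sarcomere protein, with 127 CPM in Prep1 WT and 48.4, 22.4 and 67.6 CPM in Meis WT.

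Mesenchyme, liver and macrophage genes varied as much within Meis WT as between the wild types. Of 18 mesenchyme and collagen genes, 2 were at least 2-fold lower, against 2.08% of all genes tested, and 0 higher. Without library a 6 of the 18 were lower, where 488 of all 12675 genes were. The median of the list was -0.55, and 16 of the 18 were highest in library b. Dcn, a proteoglycan of connective tissue, had 16.5 CPM in Prep1 WT and 22.8, 98.8 and 48.3 CPM in Meis WT. Fn1, fibronectin, lay the other way, with 716 CPM in Prep1 WT and 483, 426 and 424 CPM in Meis WT. Of 14 liver and yolk sac endoderm genes, 3 were lower against 2.08% of all genes tested (7 without library a, where 488 of all 12675 genes were lower, and 2 without library c). The median was -0.62, but 11 of the 14 were lowest in library a. Alb, serum albumin, had 14.7 CPM in Prep1 WT and 6.95, 82.1 and 74.0 CPM in Meis WT. Prep1 WT and library a thus stood together, apart from b and c. Of 8 macrophage genes tested, 2 were lower, against 2.08% of all genes tested, and 0 higher. Of these, Mrc1, a scavenger receptor, had 7.4987 CPM in Prep1 WT and 13.2, 27.2 and 21.2 CPM in Meis WT. Lyz2 passed the filter only through Meis WT, with 2.50 CPM in Prep1 WT and 8.31 CPM in Meis WT.

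The 3 developmental timing genes with the largest ratios had Prep1 WT beside library a as well. The RNA-binding proteins Lin28a and Lin28b block maturation of let-7 microRNAs and decline as the embryo ages, together with let-7 targets. Lin28a had 40.7 CPM in Prep1 WT and 38.6, 4.73 and 9.55 CPM in Meis WT a, b and c. Igdcc3, a membrane protein and let-7 target, had 283 CPM in Prep1 WT and 222, 26.5 and 43.9 CPM in Meis WT. Nr6a1, a nuclear receptor of the early embryo, had 25.7 CPM in Prep1 WT and 21.3, 5.97 and 8.65 CPM in Meis WT. The order was Prep1 WT, a, c and b in each of these 3 genes, with Prep1 WT and a within 1.5 times. Of the 3 with the highest means, Igf2bp1 and Igf2bp2 had the same order and Hmga2 did not. Hmga2 had 635 CPM in Prep1 WT and 491, 532 and 485 CPM in Meis WT. Whether stage differed was not tested. Over the 12 genes of the list, 3 were at least 2-fold higher than the Meis WT mean, against 4.05% of all genes tested. Without library a 6 of the 12 were, and without library b or without library c 1 was. The median log2 ratio of the list was 0.67 in Prep1 WT and 0.47, -0.47 and -0.23 in libraries a, b and c.

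**Figure D4:**
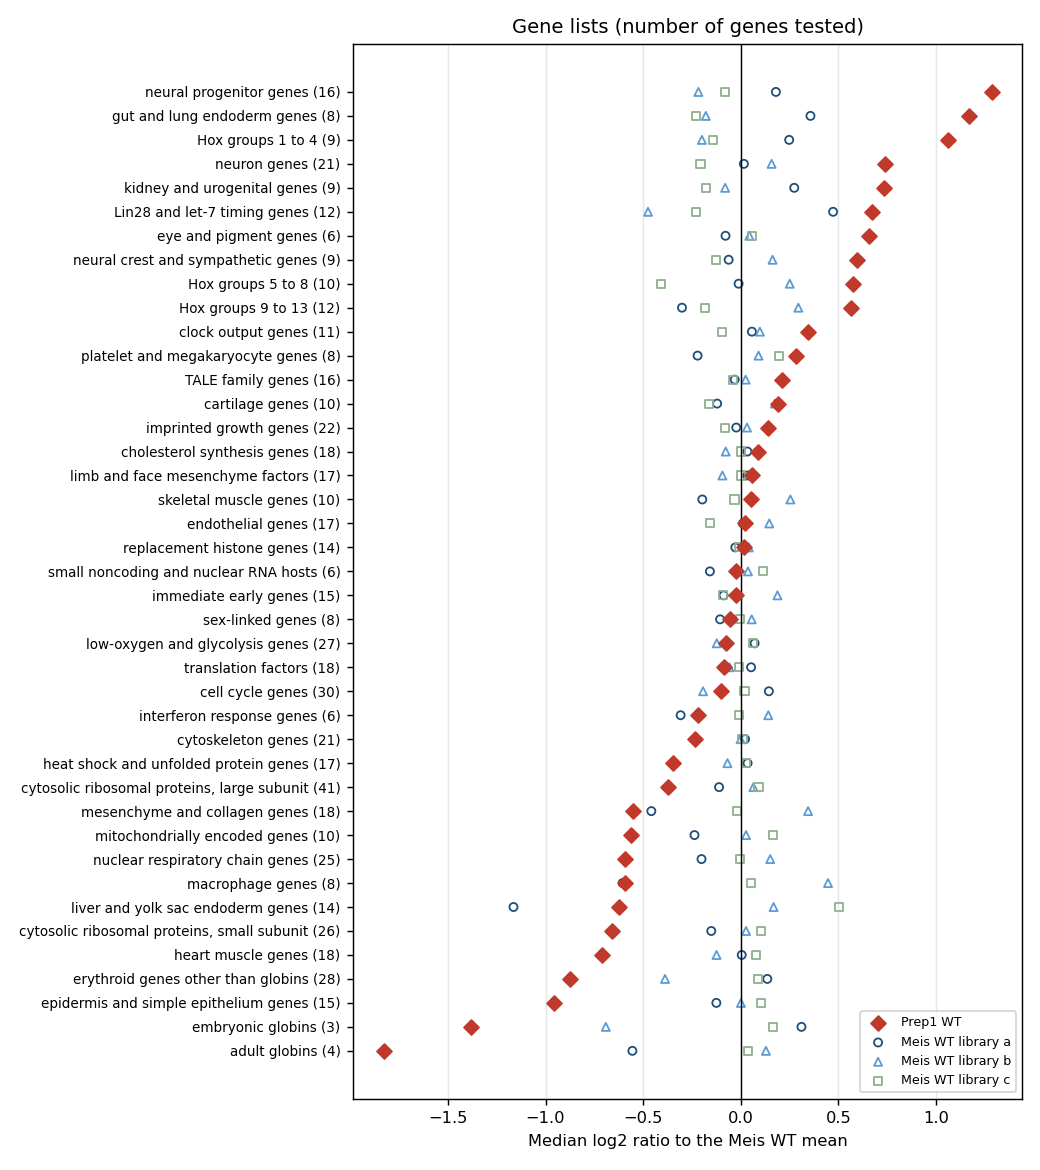
Median log2 ratio to the Meis WT mean of the members of each gene list, with the number of genes tested in brackets. Diamonds are Prep1 WT and open symbols the Meis WT libraries, whose distance from 0 shows the spread within that group. Globins, erythroid and epidermis genes lie far to the left and neural progenitor genes and anterior Hox genes far to the right, while for liver genes library a lies further left than Prep1 WT, at -1.16 and -0.62.

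Transcripts of respiration and of ribosomal proteins were lower in Prep1 WT by small amounts. Of 25 nuclear genes of the respiratory chain, 23 lay below all 3 Meis WT libraries (31.7% of all genes did) and the median log2 ratio was -0.60. At least 2-fold lower were 2 of the 25 (4 without library a, 0 without library b), against 2.08% of all genes tested. Atp5b, a subunit of ATP synthase, had 1464 CPM in Prep1 WT and 1929, 1977 and 1914 CPM in Meis WT. Of 10 genes of the mitochondrial genome, 0 passed 2-fold (2 lower without library a, mt-Rnr1 and mt-Rnr2), 7 lay below all 3 libraries and the median was -0.56. mt-Co1, a subunit of cytochrome oxidase, had 4744 CPM in Prep1 WT and 6306, 6147 and 7371 CPM in Meis WT. The medians were -0.37 for 41 large-subunit and -0.66 for 26 small-subunit ribosomal protein genes (-0.16 and -0.40 with the length correction). Many ribosomal protein genes have near-identical processed copies that can take their reads, and Rpl9 had a higher value in Prep1 WT, with a log2 ratio of 0.97. Gapdh, a glycolytic enzyme gene, stood at 12.5 CPM in Prep1 WT and 4.99, 3.50 and 6.12 CPM in Meis WT, and it too has many processed copies. Translation factors moved less, with a median of -0.09 over 18 genes. Of these, 1 was at least 2-fold higher, against 4.05% of all genes tested, and 0 lower. The 1 higher gene was not called without library a or without library c. Below all 3 Meis WT libraries were 9 of the 18, against 31.7% of all genes.

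In several programmes few or no genes differed by 2-fold. No gene passed 2-fold among 30 cell cycle genes (median -0.10), 17 endothelial genes (0.02), 17 limb and face mesenchyme factors (0.06), 14 replacement histone genes (0.02), 17 heat shock genes (-0.35) and 21 cytoskeleton genes (-0.23). Of all genes tested 6.12% did, so 0 in a list this short shows little. Under that threshold, 10 of the 17 heat shock and 14 of the 21 cytoskeleton genes lay below all 3 Meis WT libraries, against 31.7% of all genes. Without library a, 1 gene each of the replacement histone, heat shock and cytoskeleton lists passed it, and without library b 1 limb gene did. Imprinted growth genes had a median of 0.14 over 22 genes, yet 3 of them were at least 2-fold higher, against 4.05% of all genes tested. Meg3, a maternally expressed noncoding RNA, had 600.4 CPM in Prep1 WT and 163, 123 and 211 CPM in Meis WT, a log2 ratio of 1.85. Peg10, a gene derived from a retrotransposon, had 846 CPM in Prep1 WT and 463, 274 and 293 CPM in Meis WT. Of 13 trophoblast and decidua genes, 0 were among the shared genes.

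The genes that the study targets were expressed in both wild types. Meis1, a homeobox factor of the TALE family, had 141 CPM in Prep1 WT and 84.9, 83.8 and 104.9 CPM in Meis WT, a log2 ratio of 0.63. Meis2, its paralogue, had 281 CPM in Prep1 WT and 210, 207 and 185 CPM in Meis WT. Pknox1, the gene of Prep1, had 32.2 CPM in Prep1 WT and 28.7, 28.4 and 25.4 CPM in Meis WT, and 2.38 CPM in Prep1 Hypo against 23.1 CPM in Meis KO. Meis1 had 69.3 CPM in the libraries labelled Meis KO and 91.2 CPM in Meis WT, so counts over the whole gene were not lost there, and which part the allele lacks is not stated. Of 16 TALE genes tested, 0 passed 2-fold and 10 lay above all 3 Meis WT libraries, where 38.4% of all genes did (median 0.21, and 1 gene lower without library a or without library b). Transcripts of the Y chromosome were present in all 4 wild-type libraries, with Ddx3y at 45.2 CPM in Prep1 WT and 48.0, 75.1 and 50.3 CPM in Meis WT. Xist, the RNA of the inactive X chromosome, held 23 counts or 5.75 CPM in Prep1 WT and 0.22, 0 and 0.30 CPM in Meis WT.

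The mutant libraries give the same contrast of experiments in other embryos. Prep1 Hypo over Meis KO had the same sign as the wild types for 507 of the 511 higher genes (99.2%) and for 235 of the 262 lower genes (89.7%). Of all genes tested, 54.8% had a mutant ratio above 0, a share that stands beside the higher genes only. Past 2-fold the same way were 278 (54.4%) of the higher and 61 (23.3%) of the lower genes. Among all genes tested, 4.37% were at least 2-fold higher in the mutant contrast and 1.76% at least 2-fold lower. Miat had 709 CPM in Prep1 Hypo and 122 CPM in Meis KO, and Hbb-y 2642 CPM in Prep1 Hypo and 9019 CPM in Meis KO, both on the side of the wild types. The 12 highest genes were all past 2-fold the same way in the mutants. Of the 12 lowest, only Hbb-b1, Krt5, Blvrb and Hba-a1 were, and Gabrp stood at -0.11 and Ttr at 0.02. The median log2 ratio in the mutants was 0.84 for neural progenitor genes, -0.84 for erythroid genes and -1.21 for epidermis genes. It had the other sign for liver genes, at 1.301 in the mutants and -0.62 in the wild types, for macrophage genes, at 0.56 and -0.60, and for mesenchyme and collagen genes, at 0.15 and -0.55. For the Lin28 and let-7 list it was 0.01 in the mutants and 0.67 in the wild types. The mutants share experiment and processing with the wild types and differ in genotype, and these cannot be told apart.

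The difference moved with gene length. From the shortest to the longest quintile of exonic length, the median log2 ratio was -0.31, -0.07, 0.05, 0.16 and 0.29. In the mutants it was -0.30, -0.06, 0.09, 0.20 and 0.36, so both contrasts between experiments were lowest in the shortest and highest in the longest quintile. Each single Meis WT library, set against a mean that includes it, stayed between -0.10 and 0.07 in every length quintile. Within that range library a rose with length, from -0.10 to 0.05, and library b fell, from 0.07 to -0.04. The median length was 6.24 kb for the higher genes, 2.39 kb for the lower genes and 4.55 kb for all tested genes. With GC content the difference moved less, with medians of -0.11, 0.003, 0.01, 0.07 and 0.14 from the lowest to the highest quintile. The median GC content was 53.6% for the higher genes, 48.7% for the lower genes and 49.8% for all tested genes. After the median of each length bin was taken off, 384 genes were at least 2-fold higher and 229 lower. The median became 1.27 for neural progenitor genes, 0.60 for neuron genes, -0.78 for erythroid genes and -0.89 for epidermis genes. Embryonic globins, whose transcripts are short, went to -0.95 with 1 of 3 still 2-fold lower, nuclear respiratory chain genes to -0.37, and mitochondrially encoded genes to -0.17.

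**Figure D5:**
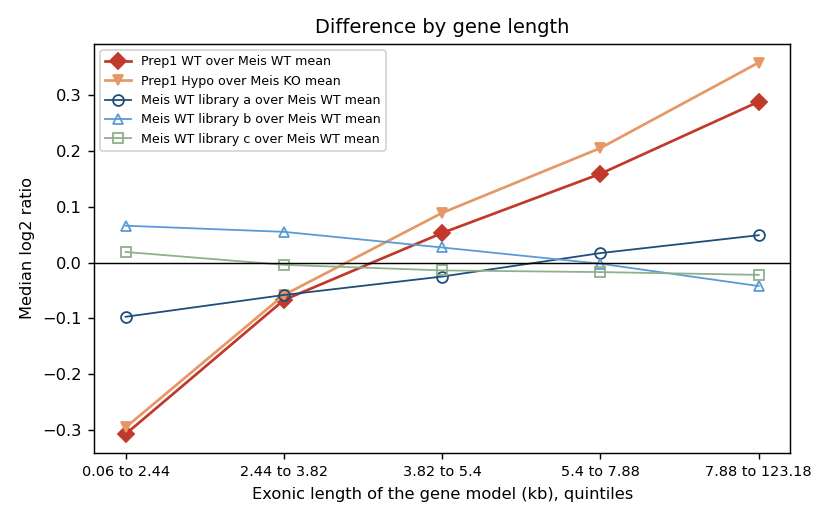
Median log2 ratio (vertical) in quintiles of exonic gene model length in kb (horizontal). Diamonds are Prep1 WT over the Meis WT mean, triangles pointing down Prep1 Hypo over the Meis KO mean, and open symbols each Meis WT library over its group mean. The wild-type line climbs with length, with -0.31 in the shortest and 0.29 in the longest quintile, as does the mutant line. The single Meis WT libraries, each set against a mean that includes it, stay nearer 0, with a rising and b falling with length.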

How the data were processed

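Reads were estimated per gene with RSEM on genome build mm9, per the submitters' processing notes. Version, strand of counting and filters: not given in the sources used here. For Meis1 the authors deposited a signal, a mean over 3 libraries of counts scaled by size factors, and a ratio of residual to fitted variance. For Prep1 the authors deposited whole expected counts, with 0 written as 0.1. The first of repeated entries was kept (37 in the Meis1 table, 34 in the Prep1 table), and 0 columns of per-sample values were left unused.

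Each deposited Meis WT mean is a sum of 3 whole counts over size factors. Its printed precision left 1 set for 18896 of 18904 genes. For 6 more (mt-Nd1, Hba-x, mt-Cytb, Actb, mt-Co1 and Eef1a1) the nearest set by the variance ratio was taken if within 1 log2 unit and the next was at least 3 away, a rule chosen after seeing the data. H19 and Hbb-y keep the mean only. Tested on simulated data (2040 of them), all had 1 answer and 100% were right. With wrong steps 0 of 300 real genes had one.

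Columns were scaled to counts per 1000000 over shared genes, with 0.5 added, a mean of at least 5 and a 2-fold threshold. Intervals for Prep1 WT are 95% exact Poisson and cover counting error only. No test was run, since the tables were normalized and filtered separately and 1 library stands against 3. Named genes are the 25 most abundant, the 12 highest and lowest with a mean of at least 20 outside the Meis WT range (predicted genes, pseudogenes and repeated entries left out), examples from 44 lists (3 highest means, 3 largest ratios), the targeted genes and the sex-linked list. Lin28b, named as background, was not among them. The members and lists were chosen with earlier results of these data known. Gene lengths and GC content are from GENCODE vM21 by Ensembl identifier (97.5% of tested genes), promoters from RefSeq. Tools were Python 3.11.15, numpy 2.4.6, pandas 2.3.3, scipy 1.17.1, and edgeR 4.0.16 for TMM factors. Alternatives were other scalings, added values and filters, each Meis WT library left out (H19 and Hbb-y then keep the mean), and corrections for length and GC. Some genes meeting this rule are not reported here.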

Additional observations from a re-analysis of the deposited data

How the results depend on the processing

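Direction was followed through the alternatives run for the most abundant genes, the highest and lowest genes named above and the targeted genes. No called gene among these changed direction, and the other called genes were not checked for it. Higher and lower genes were 451 and 319 with TMM factors, 464 and 312 with median of ratios, and 484 and 345 without the 25 most abundant genes in the sum. The other scalings moved the median of all genes from 0.03 to between -0.02 and -0.01. With 2 added, 172 genes were lower, 163 of them outside the Meis WT libraries. With no filter, 967 were higher and 656 lower (967 and 595 outside); with a mean of at least 20, 277 were higher and 109 lower (277 and 103 outside). Leaving out each Meis WT library in turn gave 518 to 630 higher and 192 to 488 lower genes (518 to 630 and 184 to 485 outside), the highest lower counts being without library a. The share of called genes with the same sign in the mutants was then 91.68% to 96.2%, and of those past 2-fold 33.09% to 47.46%. The 25 most abundant genes took 7.08% in Prep1 WT and 9.19% in Meis WT without mitochondrially encoded genes, and 100 genes took 15.19% and 18.49%. Added after seeing the data, the length correction gave 384 and 229 and the GC correction 428 and 277. List medians kept their sign in every setting for globins, erythroid, heart, epidermis, neural progenitor, neuron, Hox, gut, kidney, Lin28, ribosomal and respiratory lists. Those of the endothelial, skeletal muscle, cartilage, limb, neural crest (-0.24 to 0.66), eye (-0.59 to 0.90), replacement histone, immediate early, low-oxygen, interferon and small noncoding lists did not. No paired analysis was possible because Prep1 WT is 1 library. With fewer genes or libraries the counts change by construction; otherwise the cause was not tested. Depth limits genes under about 10 counts, such as Hbb-b1 and Krt14 in Prep1 WT.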

Other observations

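Against 4.05% higher and 2.08% lower among all genes tested, the types of gene differed as follows. Of 83 genes annotated as processed transcripts, 11 were at least 2-fold higher in Prep1 WT and 0 lower, and of 31 lincRNA genes 4 were higher and 0 lower, with medians of 0.33 and 0.26. Of 127 antisense genes 6 were higher and 1 lower, with a median of 0.24. Of 511 processed pseudogenes, 2 were higher and 25 lower, with a median of -0.38, and their reads can come from the parent genes. Among 487 genes of the X chromosome the median was -0.07, and among 13 entries of the mitochondrial genome it was -0.48.

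Among the genes in the Meis1 table only, Hbb-bh0, a minor embryonic globin of the beta locus, had a deposited Meis WT mean of 11.5, and Ctse, an aspartic protease, one of 24.2, in size-factor-scaled counts. These 2 were chosen after their values were seen.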
